A study of Mus musculus with 6 samples.

Results

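The genes described here are 10 members of the BMP pathway, read from the count table by gene name. They are the type I receptors Acvr1, Bmpr1a and Bmpr1b, the type II receptor Bmpr2, the inhibitory SMADs Smad6 and Smad7, and the ID genes Id1, Id2, Id3 and Id4. Each name matched 1 row of the 54532 genes in the table, and all 10 were among the 14801 genes that passed a filter on low counts and were tested. RNA sequencing compared Gli1+ and Gli1- cells, with 3 libraries each, described as biological replicates. Both populations came from Gli1-CreERT2; tdTomato mice on a C57BL/6 background, 1 month old, harvested a day after tamoxifen, so that the controls carried the same Cre and reporter alleles and had the same drug. Gli1+ cells were sorted as CD45- CD31- Ter119- tdTomato+ and Gli1- cells as CD45- CD31- Ter119- tdTomato-. The sort thus reads where the Gli1 promoter drove Cre during labelling, and Gli1- cells are whatever else of the digest lay outside the CD45, CD31 and Ter119 gates. The study's text names costal cartilage as the source of the sequenced cells, and the labels name the growth plate. The study tested BMPR1A genetically in Gli1+ cells, and the comparison addresses how the receptors and readouts of the same pathway stood in the unmanipulated populations.

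BMP ligands bind complexes of type I and type II receptors, which are serine/threonine kinases. The type II receptor phosphorylates the type I receptor, which then phosphorylates SMAD1, SMAD5 and SMAD9. With SMAD4 these enter the nucleus and switch on early target genes, among them the ID genes and the inhibitory SMADs. ID proteins carry a helix-loop-helix domain but no basic DNA-binding region, and they hold basic helix-loop-helix (bHLH) factors off DNA. SMAD6 and SMAD7 feed back on the receptors. In cartilage, BMPR1A and BMPR1B have overlapping roles in chondrogenesis, and BMP signals are opposed by FGF signals in the growth plate.

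The 4 ID genes are paralogs, so their most similar coding stretch is shown to let the differences between them be seen. The stretch is 75 bases of each coding sequence in GENCODE M21 (GRCm38), chosen as the in-frame window with the most bases shared by all 4. It lies in a single coding exon of each gene, at chr2:152736572-152736646 (+ strand) in Id1, chr12:25095774-25095848 (- strand) in Id2, chr4:136144056-136144130 (+ strand) in Id3 and chr13:48261747-48261821 (+ strand) in Id4. Capitals mark the 46 of 75 bases that all 4 genes share.
Id1: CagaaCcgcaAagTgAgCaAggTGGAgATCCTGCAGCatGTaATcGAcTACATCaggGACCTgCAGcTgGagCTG
Id2: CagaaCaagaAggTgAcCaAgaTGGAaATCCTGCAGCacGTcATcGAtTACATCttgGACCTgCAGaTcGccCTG
Id3: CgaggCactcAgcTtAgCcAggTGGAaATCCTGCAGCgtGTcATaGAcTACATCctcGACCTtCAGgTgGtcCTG
Id4: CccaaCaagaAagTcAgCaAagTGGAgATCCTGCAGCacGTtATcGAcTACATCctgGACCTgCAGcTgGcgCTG
Within this window Id1 and Id4 were the closest pair, with 84.0% identical bases, and Id1 and Id3 the most distant, with 69.3%. No stretch of 50 bases in the transcripts of 1 member occurred in those of another, so reads of that length can be told apart between the paralogs. Of the 50-base stretches of Id2, 0.33% also occurred in Gm6175. For Id4, 2.08% also occurred in the overlapping antisense genes A330033J07Rik and Gm49291, which held 24 and 10 reads over the 6 libraries beside 517 for Id4. For Bmpr1a, 3.77% also occurred in the antisense gene Gm17110, which held 160 reads beside 10842 for Bmpr1a. The use of strand in counting is not given in the sources used here, so reads of these antisense genes and of the members cannot be told apart where they overlap.

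Promoter stretches of Smad6, Id2 and Id3, which were lower in Gli1+ cells in all 3 pairs, and of Id4, which was not, are shown because SMAD proteins are known to bind short motifs near ID and inhibitory SMAD genes. RefSeq windows of 300 bases (GRCm38.p6, 250 before and 50 after the start) were searched for 8 of the 10 members. Id1 had no window of that length. Smad7 was not searched, since member windows on its chromosome, 18, were left out. Whether the Smad7 promoter holds any of these motifs was therefore not examined. Capitals mark the motif, which was searched on both strands.
Smad6, chr9:64022046-64022073 (- strand): ccgccaaagtGTCTAGACtggcatatga
Id2, chr12:25096308-25096333 (- strand): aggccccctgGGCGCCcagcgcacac
Id3, chr4:136143645-136143669 (+ strand): tcctcggcgtCAGACcagcctaagg
Id3, chr4:136143744-136143768 (+ strand): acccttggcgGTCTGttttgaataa
Id4, chr13:48260958-48260983 (+ strand): cgggttgcccGGCGCCccgccctcgc
GTCTAGAC, the palindrome of the core SMAD motif, occurred in the Smad6 window across its start and in 0.213% of the 32851 windows of all genes. GGCGCC, a GC-rich motif, occurred once each in Id2, Id4, Bmpr1a and Bmpr2 and in 11.9% of all windows. CAGAC, or GTCTG on the other strand, occurred at 2 places in Id3, in windows of Bmpr1b and in 49.6% of all windows. The E-box CANNTG, a motif bound by the bHLH partners of ID proteins, occurred in Smad6, Id2 and windows of Bmpr1b and in 72.3% of all windows. The Acvr1 window held none of the 4 motifs. These motifs do not overlap in the stretches shown. A match is a description of letters and not a binding site.

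Library totals lay between 17114101 and 18602482 counts, and levels are given as CPM, a gene's reads relative to the library total after TMM scaling. Both libraries numbered 1 stood apart from the other 4. Gli1+ replicate 1 had reads on 15000 genes, against 20666 to 23360 in the others, and 9.56% of the tested genes were at 0 in it, against at most 0.980% elsewhere. Its counts also moved with gene length: of 4 length classes of nearly equal size, the shortest genes (under 2369 bases) lay at a median of -0.93 relative to the mean of the 6 libraries on the log2 scale, and the longest (over 6413 bases) at 0.54. Both replicate 2 libraries leaned the other way, at 0.65 and 0.56 for short genes. In Gli1- replicate 1 the 10 leukocyte markers summed to 3489 CPM, against 10.8 to 68.8 in the other 5 libraries, with S100a9 at 1395 CPM, S100a8 at 1145 CPM and Lyz2 at 581 CPM. Gli1 itself, the gene behind the sort, was at 4.55, 6.39 and 7.98 CPM in Gli1+ cells and 0.724, 1.26 and 2.43 CPM in Gli1- cells, so that the labels and the gene went the same way. Cartilage collagen Col2a1 was between 2130 and 13534 CPM in every library. Each member's values are therefore given in every library, and with both libraries numbered 1 left out.

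**Figure D1:**
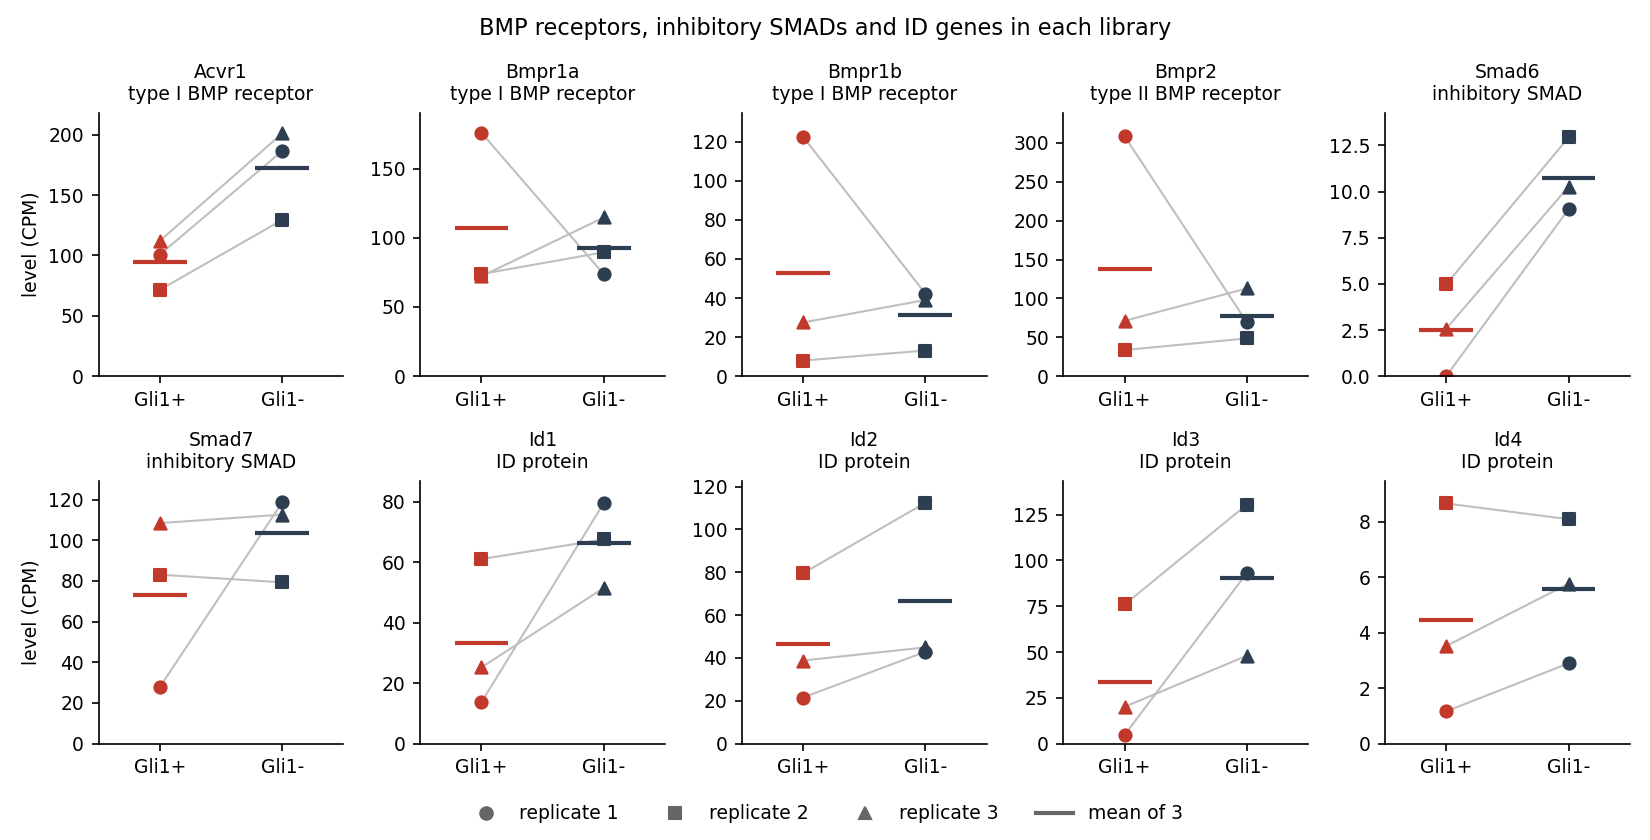
Level of each member in CPM (vertical axes start at 0 and differ between panels) in Gli1+ (red) and Gli1- (dark) libraries, with grey lines joining libraries of the same number and bars at the mean of 3. Acvr1 and Smad6 do not overlap between populations, while Gli1+ replicate 1 (circles) is the highest library for Bmpr1a, Bmpr1b and Bmpr2 and the lowest for Smad7 and the 4 ID genes.

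In the comparison of Gli1+ with Gli1- cells over the 6 libraries, no member passed the study's thresholds (a log2 fold change, log2FC, over 1 or under -1 and an adjusted p-value under 0.05). No gene of the table did, with edgeR's quasi-likelihood test (0 of 14801, 0%), and 514 genes (3.47%) had an unadjusted p under 0.05, none of them a member. DESeq2 without pairing called 30 genes and no member. The study itself reported genes past these thresholds, with a test that its methods do not name, so the count of 0 belongs to the edgeR fit. Log2FC was below 0 for 7 of the 10 members, against 49.9% of all genes, and the median over the members was -0.51, against 0.0013 over all genes. The Gli1+ values lay below every Gli1- value for 2 members, Acvr1 and Smad6 (background 4.45%), and above them for 0 (background 4.04%). With libraries paired by number, 5 members were lower in Gli1+ cells in 3 of 3 pairs, namely Acvr1, Smad6, Id1, Id2 and Id3 (background 19.8%), and 0 were higher in all 3 (background 17.6%). Taken pair by pair, 7 of the 10 were lower in the pair numbered 1 (background 55%), 8 in the pair numbered 2 (background 47.8%) and 10 in the pair numbered 3 (background 49.1%). With the replicate number as a block in edgeR, 2 members had an unadjusted p under 0.05 and were lower (background 5.25%), 0 were higher (background 3.36%), and 0 were called (background 0%). In these bulk populations, fewer cells that express a gene and less RNA per cell cannot be told apart.

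Among the receptors, Acvr1 separated the populations. Acvr1 encodes ALK2, a type I receptor that carries BMP signals and, when activated by mutation in humans, drives ectopic bone formation. Its level was 101, 71.5 and 112 CPM in Gli1+ replicates 1 to 3 and 187, 129 and 201 CPM in Gli1- replicates 1 to 3. All 3 Gli1+ libraries were below all 3 Gli1- libraries, and the difference was nearly the same in each pair, at -0.89, -0.86 and -0.84 on the log2 scale. The mean was 94.8 ± 20.9 CPM (SD, n = 3) against 172 ± 37.9 CPM, and edgeR gave a log2FC of -0.86 with a standard error (SE) of 0.40, an unadjusted p of 0.0609 and an adjusted p of 0.9999. The exact 2-sided permutation test gave p = 0.10, the smallest it can give with 3 libraries against 3. With the replicate number as a block, the log2FC was -0.86 with an SE of 0.24 and an unadjusted p of 0.0130 (edgeR, adjusted p = 0.446). Acvr1 kept its sign in all 25 alternatives, between -1.07 and -0.71. Its length of 4829 bases lies in a length class whose median in Gli1+ replicate 1 was -0.0026.

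Bmpr1a, the type I receptor that the study deleted, did not differ beyond its spread. Gli1+ cells had 176, 73.8 and 72.2 CPM and Gli1- cells 73.6, 89.5 and 115 CPM. Gli1+ replicate 1 was the highest of the 6 libraries, and the other Gli1+ libraries were the lowest along with Gli1- replicate 1. The log2FC was 0.21 with a 95% interval from -0.88 to 1.31 (edgeR, unadjusted p = 0.667). Left without Gli1+ replicate 1 it was -0.36, so the sign rests on that library.

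Bmpr1b, a type I receptor known for its part in cartilage condensations, also overlapped between the populations. Its level was 123, 7.98 and 27.5 CPM in Gli1+ cells and 42.3, 13.1 and 39.0 CPM in Gli1- cells. Replicate 2 was the lowest library in both populations and Gli1+ replicate 1 the highest of all. The log2FC was 0.74 with an interval from -1.34 to 2.83 (edgeR, unadjusted p = 0.436), and it turned to -0.85 without Gli1+ replicate 1.

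Bmpr2, the type II receptor that phosphorylates them, was likewise highest in Gli1+ replicate 1 and lowest in Gli1+ replicate 2. It was at 309, 33.6 and 71.3 CPM in Gli1+ cells and at 69.1, 48.6 and 113 CPM in Gli1- cells. The log2FC was 0.84 with an interval from -0.96 to 2.65 (edgeR, unadjusted p = 0.314) and turned to -0.57 without Gli1+ replicate 1. Bmpr2 is the longest member (17983 bases), and with the trend on gene length removed from each library its log2FC was 0.22. Bmpr1a, Bmpr1b and Bmpr2 were each higher in Gli1+ cells in the pair numbered 1, by 1.26, 1.53 and 2.16 on the log2 scale. In the pair numbered 2 they were lower, at -0.28, -0.71 and -0.53, and likewise in the pair numbered 3, at -0.67, -0.50 and -0.66. Across all genes 26.1% had their highest value in Gli1+ replicate 1, and 36.1% their lowest. The part of library quality in these receptor values was not tested.

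Levels can be set against each other only per length, as CPM per kilobase of gene. On that scale Acvr1 made up 30.2%, 53.3% and 59.2% of the summed type I receptor level in Gli1+ replicates 1 to 3 and 67.4%, 62.2% and 62.9% in Gli1- replicates 1 to 3. The Gli1+ shares were all below the Gli1- shares (exact 2-sided permutation p = 0.10, the smallest possible). Bmpr1a made up 40.1%, 41.9% and 29.0% in Gli1+ cells and 20.2%, 32.7% and 27.3% in Gli1- cells, and these ranges overlapped (exact permutation p = 0.20). Bmpr1b was the smallest share in every library, from 4.82% to 29.7%.

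Smad6 had the largest difference of the 10 members. SMAD6 is the inhibitory SMAD that acts mainly on BMP rather than TGF-beta signals. Its level was 0, 4.97 and 2.57 CPM in Gli1+ replicates 1 to 3 and 9.05, 12.9 and 10.3 CPM in Gli1- replicates 1 to 3. In reads, these were 0, 81 and 49 against 175, 195 and 194. All Gli1+ libraries were below all Gli1- libraries, and the Gli1- libraries were close to each other, at 10.7 ± 1.99 CPM (SD, n = 3). By counting error alone, a count of 0 allows up to 3 reads, or 0.159 CPM, in Gli1+ replicate 1. That would put it at least 57.0-fold lower than the library it pairs with. However, 9.56% of the tested genes were at 0 in Gli1+ replicate 1, against at most 0.980% elsewhere. The 0 therefore sets no firm bound on the fold. In the other pairs the difference was -1.36 and -1.95 on the log2 scale. The fitted log2FC of -2.09 (SE 1.25, edgeR, unadjusted p = 0.131) depends on how that 0 is treated and was -1.53 without Gli1+ replicate 1 (unadjusted p = 0.0274). With DESeq2 and the block Smad6 was at -3.11 with an adjusted p of 0.0670, which misses the threshold.

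Smad7, the inhibitory SMAD that also blocks TGF-beta receptors, did not separate the populations. It was at 27.8, 83.1 and 108 CPM in Gli1+ cells and at 119, 79.3 and 113 CPM in Gli1- cells. Its log2FC was -0.50 with an interval from -1.72 to 0.72 (edgeR, unadjusted p = 0.372). Gli1+ replicate 1 was the lowest library. The pairs numbered 2 and 3 differed by 0.067 and -0.054 on the log2 scale, and without Gli1+ replicate 1 the log2FC was -0.14.

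Id3 had the largest difference among the ID genes. Id3, a regulator of early differentiation in many lineages, was at 4.81, 76.0 and 20.1 CPM in Gli1+ replicates 1 to 3 and at 93.2, 131 and 48.0 CPM in Gli1- replicates 1 to 3. Its groups overlapped, since Gli1+ replicate 2 was above Gli1- replicate 3, but within each pair the Gli1+ library was the lower. The differences were -4.24, -0.78 and -1.25 on the log2 scale. Over the 6 libraries the log2FC was -1.43 (SE 0.88, edgeR, unadjusted p = 0.144), and with the block it was -1.99 (SE 0.76, unadjusted p = 0.0440, adjusted p = 0.573). DESeq2 with the block called Id3 lower, at a log2FC of -2.02 (SE 0.63, adjusted p = 0.0433), the only member among the 313 genes (2.11%) it called lower and the 115 (0.777%) it called higher. Without both libraries numbered 3 the log2FC was -2.50 (SE 0.74), a larger value, but the adjusted p of 0.0850 missed the threshold.

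Id1, the ID gene most often used as a readout of BMP signals, was at 13.7, 61.0 and 25.2 CPM in Gli1+ cells and 79.6, 67.6 and 51.5 CPM in Gli1- cells. Gli1+ replicate 2 was the one library that reached into the range of the other population. The pair differences were -2.53, -0.15 and -1.03 on the log2 scale. The log2FC was -0.99 with an interval from -2.31 to 0.33 (edgeR, unadjusted p = 0.121), and with the block -1.22 (unadjusted p = 0.0579). Id1 and Id3 are short (1160 and 1791 bases) and lie in the length class that was low in Gli1+ replicate 1. With the length trend removed, their log2FC values were -1.07 and -1.58.

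Id2, which also has roles in lymphoid and neural cells, was at 21.5, 79.5 and 38.8 CPM in Gli1+ cells and 42.9, 112 and 45.0 CPM in Gli1- cells. Replicate 2 was the highest library in both populations, and the pair differences were -0.99, -0.50 and -0.21 on the log2 scale. The log2FC was -0.52 with an interval from -1.91 to 0.87 (edgeR, unadjusted p = 0.417) and became 0.06 without Gli1- replicate 2. Id4 was the lowest ID gene, at 1.16, 8.66 and 3.52 CPM in Gli1+ cells and 2.90, 8.09 and 5.77 CPM in Gli1- cells. Its log2FC of -0.33 (interval -2.17 to 1.51, edgeR, unadjusted p = 0.692) was 0.11 when Gli1+ replicate 1 was left out and 0.02 when the second Gli1- library was.

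The summed ID level was 23.6, 130 and 49.8 CPM per kilobase in Gli1+ replicates 1 to 3 and 139, 179 and 91.2 CPM per kilobase in Gli1- replicates 1 to 3. It was lower in the Gli1+ library of each pair, and the populations overlapped at Gli1+ replicate 2. Id3 made up 11.4%, 32.7% and 22.6% of that sum in Gli1+ cells and 37.4%, 40.6% and 29.4% in Gli1- cells, which overlapped (exact 2-sided permutation p = 0.20). Id2 went the other way, at 37.4%, 25.1% and 32.0% in Gli1+ cells and 12.7%, 25.7% and 20.2% in Gli1- cells, which also overlapped (exact 2-sided permutation p = 0.20). Id1 made up 44.7 ± 4.82% (SD, n = 3) and 43.5 ± 9.56%, a difference smaller than the spread (exact permutation p = 0.80). Id1 and Id3 lie in the shortest length class and Id2 and Id4 in the next. In Gli1+ replicate 1 these classes had medians of -0.93 and -0.39 on the log2 scale. Division by length does not remove that trend from the shares.

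**Figure D2:**
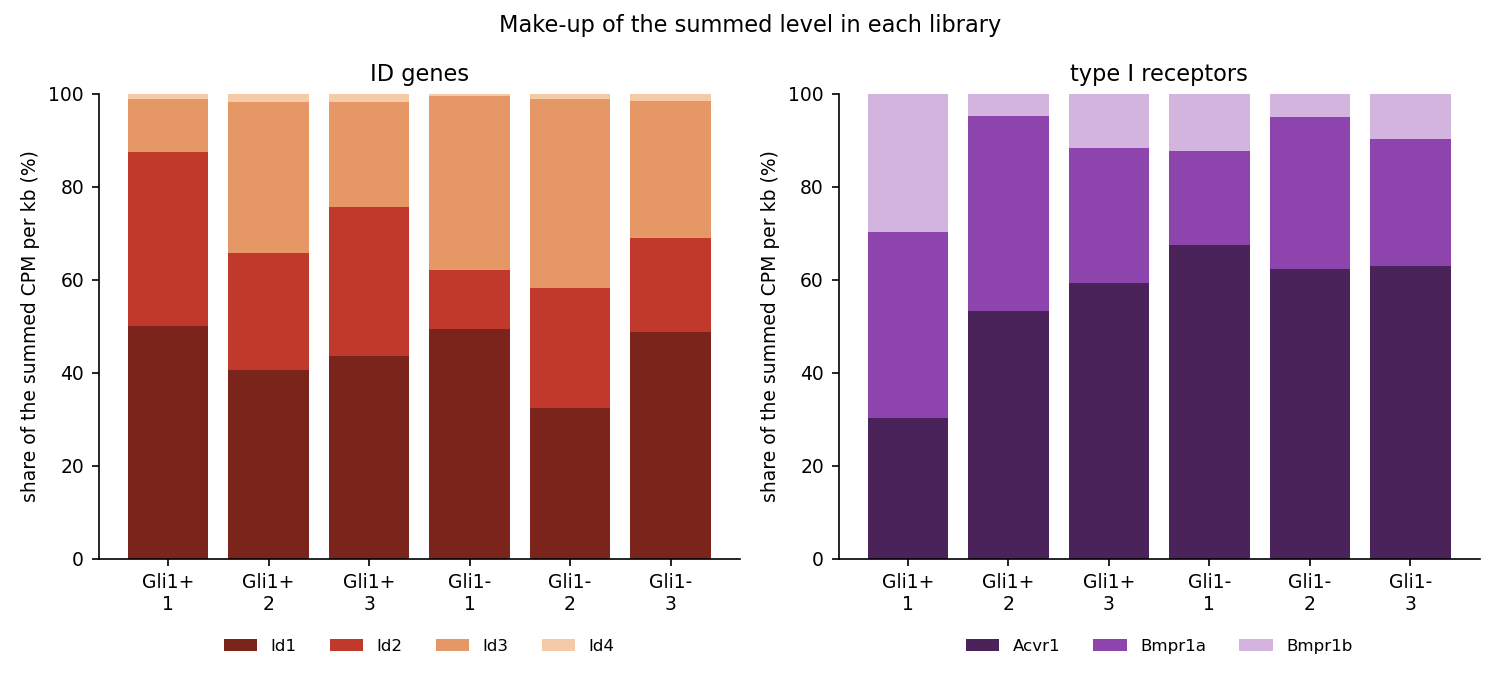
Share of the summed CPM per kilobase (%) that each ID gene (left) and each type I receptor (right) takes in the 6 libraries, with Gli1+ replicates 1 to 3 on the left of each panel. The Acvr1 share is 30.2% to 59.2% in Gli1+ libraries and 62.2% to 67.4% in Gli1- libraries, and Id4 is under 2% throughout.

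With both libraries numbered 1 left out, a choice made after seeing the data, 8 of the 10 members were lower in Gli1+ cells in both remaining pairs (background 32%) and 0 were higher in both (background 35%). The 3 members whose Gli1+ values both lay below both Gli1- values were Acvr1, Bmpr1a and Smad6 (background 11.2%). A fit with the replicate block on these 4 libraries called Smad6 and Id3 lower. Smad6 was at a log2FC of -1.68 (SE 0.33, edgeR, adjusted p = 1.3e-05) and Id3 at -1.02 (SE 0.21, edgeR, adjusted p = 3.4e-05). In this fit 4.67% of genes were called lower and 3.16% higher. DESeq2 called the same 2 members, at adjusted p-values of 0.0021 for Smad6 and 0.0015 for Id3, with 3.27% of genes called lower and 1.82% higher. Acvr1 had an adjusted p of 0.00070 in edgeR but a log2FC of -0.86, which misses the fold threshold. Bmpr1a, Bmpr1b and Bmpr2 were at -0.48, -0.61 and -0.61, with adjusted p-values of 0.102, 0.0668 and 0.0286 in edgeR and 0.238, 0.221 and 0.0992 in DESeq2. Smad7 was at 0.00015 with an interval from -0.40 to 0.40. Id1 was at -0.59, with an adjusted p of 0.0398 in edgeR and 0.212 in DESeq2 and a fold under the threshold. Id2 was at -0.36 and Id4 at -0.30, with adjusted p-values of 0.262 and 0.663 in edgeR. With 2 pairs, the spread of each gene in the edgeR fit came almost wholly from all genes, so these p-values assume that the members vary like other genes.

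**Figure D3:**
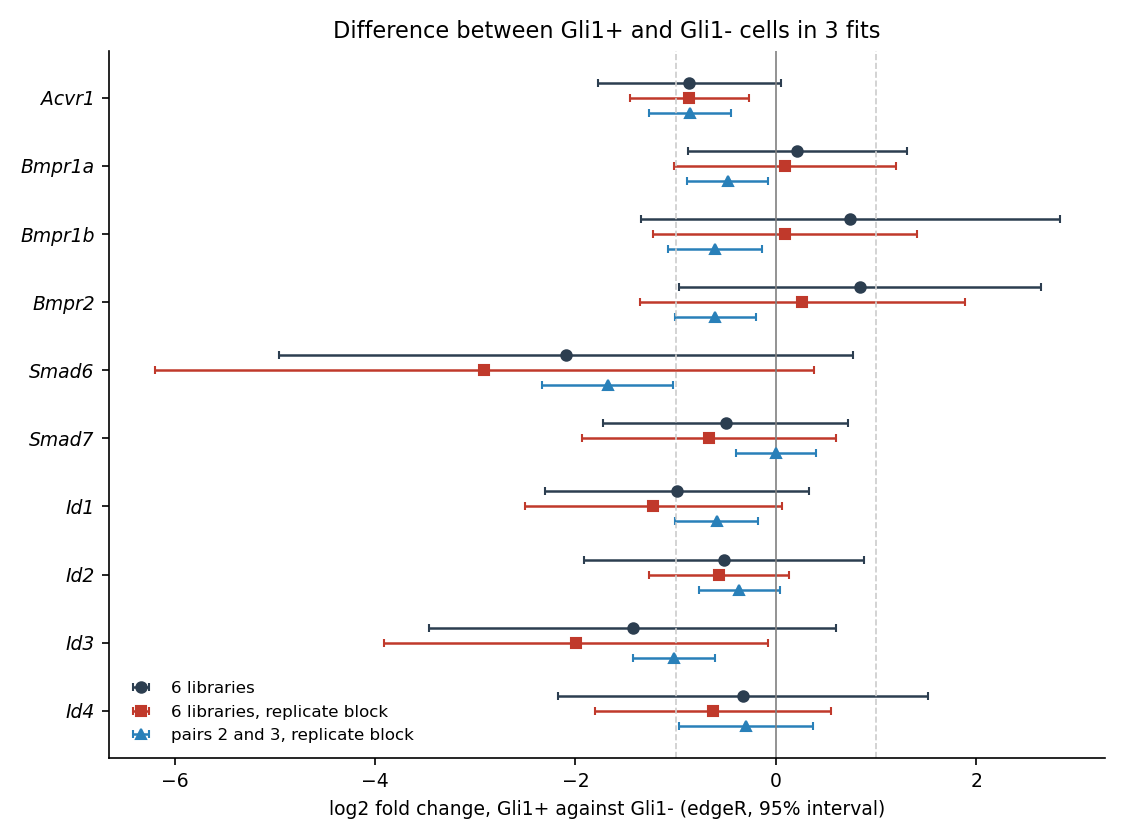
Log2FC of each member with its 95% interval (horizontal axis, edgeR) over 6 libraries, over 6 libraries with the replicate block, and over pairs 2 and 3 with the block, with dashed lines at the fold threshold. Acvr1 lies at -0.86 in each fit, while Bmpr1a, Bmpr1b and Bmpr2 move from 0.21, 0.74 and 0.84 over 6 libraries to -0.48, -0.61 and -0.61 without the libraries numbered 1.

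Several members lay farther from the mean of the 6 libraries in Gli1+ replicate 1 than the median of their length class. Many genes of any class lie beyond its median. The share of genes as far out as these members was not counted, so the values describe position only. Relative to the mean of the 6 libraries, Id3 was at -3.04 and Id1 at -1.62 on the log2 scale in that library, where the class of shortest genes had a median of -0.93. Bmpr2 was at 1.93 where the class of longest genes had a median of 0.54, and Bmpr1b at 2.08 where its class had a median of -0.0026. Acvr1, at -0.32, lay closer to its class. In Gli1+ replicate 3, whose classes had medians between 0.0013 and 0.10, Id1 was at -0.75. Over the 6 libraries without the block, removing the length trend changed the sign of no member. What set Gli1+ replicate 1 apart was not tested.

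**Figure D4:**
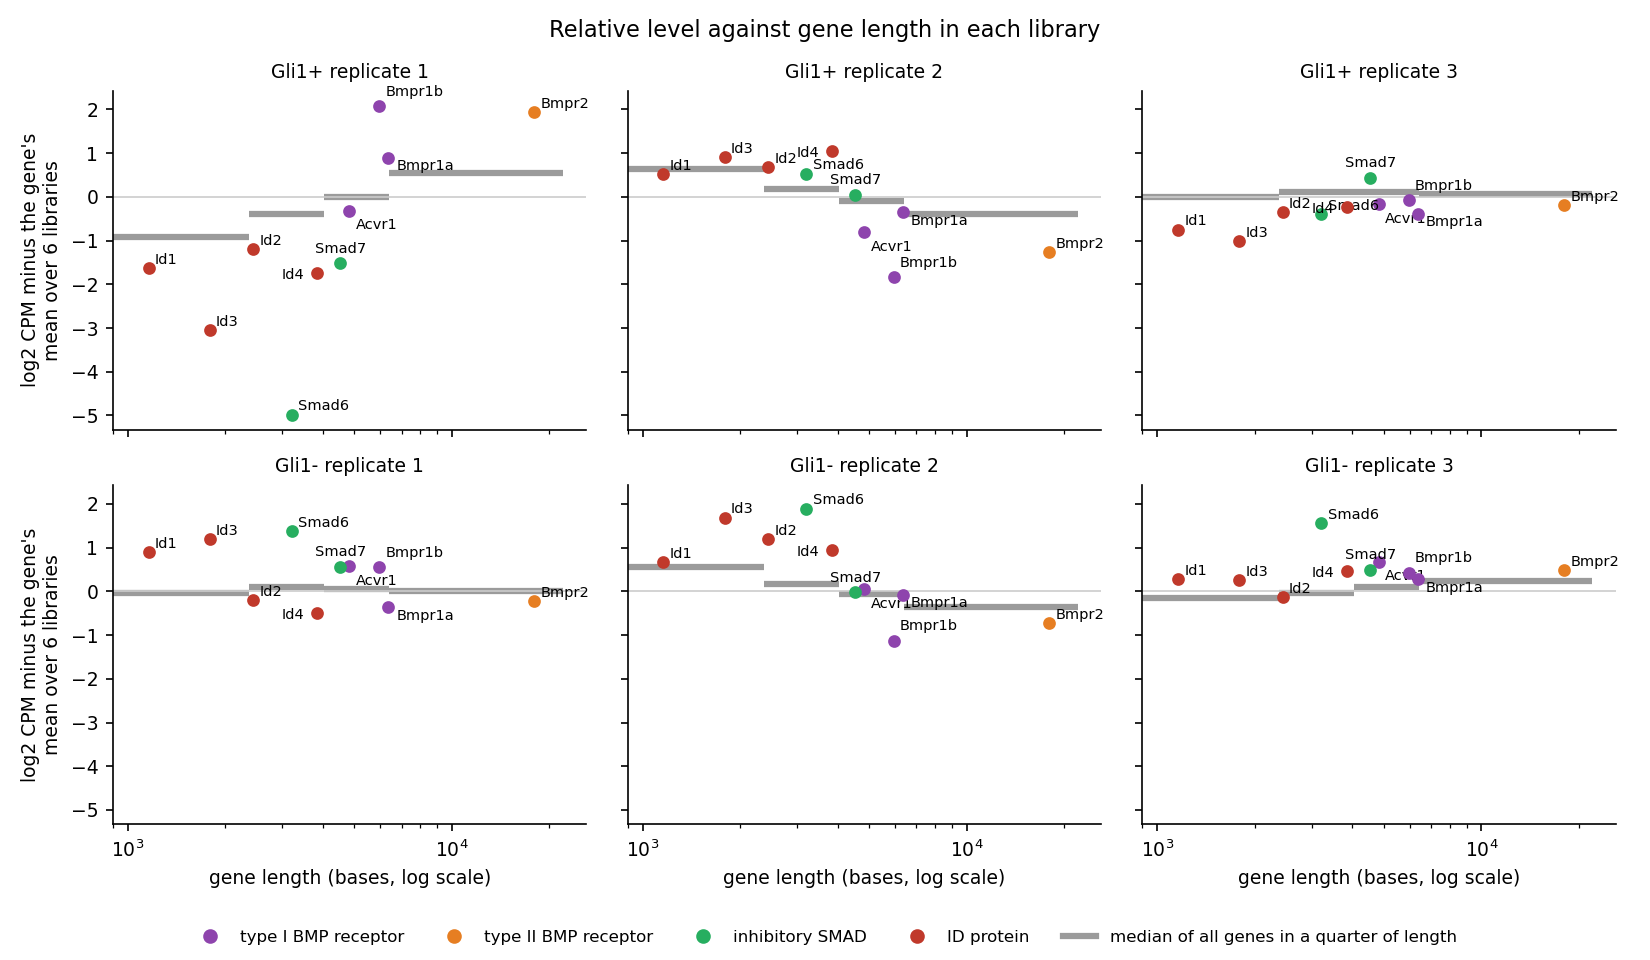
Log2 CPM of each member minus its mean over the 6 libraries (vertical axis) against gene length in bases (log scale), 1 panel per library, with grey bars at the median of all genes in each of 4 length classes. In Gli1+ replicate 1 the bars rise from -0.93 to 0.54 with length, and in both replicate 2 libraries they fall. The Smad6 point of Gli1+ replicate 1 rests on a count of 0 and depends on the prior count.

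By mean level per length, Id1 had the highest mean in both populations, and the order below it differed. In Gli1+ cells Id1 was above the next gene, Acvr1, in 1 of 3 libraries, Gli1+ replicate 2. In Gli1- cells the order was Id1 (57.1 CPM per kilobase), Id3 (50.6), Acvr1 (35.7), Id2 (27.4), Smad7 (22.9), Bmpr1a (14.6), Bmpr1b (5.28), Bmpr2 (4.27), Smad6 (3.35) and Id4 (1.45). Among neighbours in that order, the ranges did not overlap between Bmpr1a and Bmpr1b or between Smad6 and Id4, and all other neighbours overlapped. In Gli1+ cells the order was Id1 (28.7 CPM per kilobase), Acvr1 (19.6), Id2 (19.1), Id3 (18.8), Bmpr1a (16.9), Smad7 (16.2), Bmpr1b (8.83), Bmpr2 (7.67), Id4 (1.16) and Smad6 (0.785), and every neighbouring pair overlapped. Id3 thus had rank 2 in Gli1- cells and rank 4 in Gli1+ cells, on a scale that keeps the length trend of the libraries.

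Over the 6 libraries, Id1 and Id3 had the most alike log2 CPM profiles of the members (Pearson's r = 0.98, Spearman's rho = 0.94), followed by Bmpr1b and Bmpr2 (r = 0.95, rho = 0.83). All genes are read over the same 6 libraries and share their length trend. Across all tested genes, the closest to Bmpr1a were Sytl5, Picalm and Zbtb33 (r = 0.991, 0.990 and 0.990), with 202 genes over an r of 0.9. Their Spearman's rho was 0.94, 0.83 and 0.94. Bmpr1a was at 176 CPM in Gli1+ replicate 1 and at 72.2 to 115 CPM elsewhere, so these r values rest largely on that library. The closest to Id1 were Pip5k1b, Vsir and Cyth1 (r = 0.999, 0.998 and 0.995, with 438 genes over 0.9). The closest to Id3 were Flot1, Cyhr1 and Gm31045 (r = 0.999, 0.998 and 0.997, with 986 genes over 0.9).

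Other genes of the pathway gave no call in edgeR over the 6 libraries, and each list is given by its counts. DESeq2 with the block called 3 of them, the ligand and antagonist genes Bmp7 (1.91, adjusted p = 0.0031), Bmp2 (-1.31, 0.0081) and Nbl1 (-2.05, 0.0092). Of 13 other receptors and co-receptors tested, 0 were called and 0 had an unadjusted p under 0.05, with a median log2FC of -0.22 that was -0.56 without Gli1+ replicate 1. The 3 with the smallest p were Acvrl1, the endothelial type I receptor ALK1 (-1.74, unadjusted p = 0.0685), Acvr1b, an activin receptor (-0.84, 0.0996), and Tgfbr3, a co-receptor (-0.77, 0.108). Of 12 SMAD transducers and regulators, 0 had an unadjusted p under 0.05 11 had a log2FC below 0 and the median was -0.26. The ubiquitin ligase gene Nedd4l had the smallest p (-0.87, 0.146), ahead of the SMAD co-repressors Ski and Skil (-0.48, 0.331 and -0.41, 0.382).

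Of 19 BMP ligands and antagonists tested, 1 was higher and 3 were lower at an unadjusted p under 0.05 (background 1.43% and 2.04%), with a median of -0.42 and 0 called. Bmp7, a ligand of ACVR1 complexes, was at a log2FC of 2.02 (SE 0.50, edgeR, unadjusted p = 0.0035). The study reported Bmp7 as high in Gli1+ cells and named BMPR1A as the receptor that carries its signal. Bmp2 and Bmp3 were at -1.31 and -1.21 (edgeR, unadjusted p = 0.0105 and 0.0168). The antagonist gene Nbl1, named because it completes the count, was at -1.65 (edgeR, unadjusted p = 0.0466). The median of these ligands and antagonists was -0.83 without Gli1+ replicate 1. The 9 other BMP-responsive genes tested had a median of 0.10, with 1 higher and 0 lower at an unadjusted p under 0.05. That median was -0.26 with the replicate block and 0.40 without Gli1+ replicate 1, so its sign is not settled. The homeobox gene Msx2 was the one higher (1.98, 0.0420), and Atoh8 (-1.03, 0.278) and the pseudoreceptor gene Bambi (-0.97, 0.281), which is also in the receptor list, followed. Of 11 bHLH genes, most of them partners of ID proteins, 10 had a log2FC below 0, with a median of -0.65 and 0 at an unadjusted p under 0.05. Tcf4, an E protein, had the smallest p (-0.96, 0.0758), ahead of Twist1 (-1.09, 0.240) and Twist2 (-0.65, 0.405). That median was -0.20 without Gli1+ replicate 1.

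Markers of other cells and of handling moved with some of these values. The 11 dissociation stress and immediate early genes summed to 2049, 16636 and 6509 CPM in Gli1+ replicates 1 to 3. In Gli1- replicates 1 to 3 they summed to 11819, 34185 and 17664 CPM, so the Gli1+ library was lower in each pair. Of the 11, 8 were lower in all 3 pairs (background 19.8%), and their median log2FC with the block was -1.56. The lowest sum was in the library where Id1, Id2, Id3 and Id4 were lowest. The part of these genes in the ID values was not tested. Leukocyte markers stood high in Gli1- replicate 1 alone, and without it Id1, Id3, Smad6 and Acvr1 were at -0.84, -1.41, -2.20 and -0.81. Endothelial markers, of a cell type with high Id1 and Smad6, summed to 4.91 to 7.35 CPM in Gli1+ cells and 7.35 to 27.7 CPM in Gli1- cells, with 5 of 10 tested. Chondrocyte markers summed to 10486 to 27865 CPM and 9736 to 40518 CPM, and hypertrophic chondrocyte markers to 6577 to 8350 CPM and 2250 to 9586 CPM. Within the hypertrophic list Mmp13 and Col10a1 went opposite ways, with Mmp13 at a mean of 4349 against 552 CPM (log2FC 2.98, edgeR, unadjusted p = 0.00053) and Col10a1 at 130 against 717 CPM (-2.46, 0.0612). Perichondrial fibroblast markers summed to 1832 to 4209 CPM and 2264 to 10254 CPM, with 8 of 9 below 0 and a median log2FC of -1.25, and smooth muscle or pericyte markers to 570 to 981 CPM and 301 to 743 CPM. Skeletal muscle markers summed to 1.06 to 36.5 CPM and 4.02 to 25.7 CPM, and erythroid markers to 0 to 4.79 CPM and 0.582 to 19.1 CPM. Their part in the members' values was not tested.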

How the data were processed

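RNA of FACS-sorted Gli1+ and Gli1- cells was sequenced as 6 libraries. The authors deposited counts, the whole number of reads per gene and library, with no normalization and no pooling. The submitters' processing notes name HISAT2 2.0.5, featureCounts 1.5.0-p3 and the build mm10. The use of strand is not given in the sources used here. Every column of per-sample values was used.

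Genes were filtered with filterByExpr (minimum count 10), scaled by TMM and fitted in edgeR 4.0.16 (R 4.3.3) with its legacy quasi-likelihood test, with Benjamini-Hochberg adjustment over all 14801 genes tested. Calls needed a log2FC over 1 or under -1 and an adjusted p under 0.05, as in the study's methods. Values on the log2 CPM scale used a prior count of 2. Alternatives used DESeq2 1.42.0, limma-voom (limma 3.58.1), other scalings and filters, a replicate block, removal of a trend on gene length (lowess span 0.3), and libraries left out. The tests were run on simulated counts with the same dispersion for every gene and no replicate effect or length trend. That check does not cover libraries with many zeros and a length trend, such as Gli1+ replicate 1. Python 3.11.15 and matplotlib 3.10.9 were used for sequences and figures.

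By the study's text, Gli1+ and Gli1- cells were sorted from shared mice. As a check of pairing by number, each library's deviation from its group mean was correlated with that of its partner, which gave 0.22, 0.72 and 0.47 for numbers 1 to 3. Each value was over 0.1, and the number was used as the block. Among libraries of unlike number, Gli1+ replicate 1 with Gli1- replicate 3 gave 0.27, above its own partner, and Gli1+ replicate 3 with Gli1- replicate 1 gave 0.11. The text names the 10 members, Gli1, Bmp7, at most 3 genes of each pathway list by smallest p and of each marker list by mean CPM, and the 3 genes most correlated with Bmpr1a, Id1 and Id3. Nbl1 was named outside this rule, after its values were seen. The members and lists were chosen with earlier results of these data known. Library totals were 17114101 to 18602482 counts. The floor of 3 counts covers counting error only.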

Additional observations from a re-analysis of the deposited data

How the results depend on the processing

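Over all genes, 0 were called in the main test and 267 with no filter on low counts, 30 with DESeq2, and 428 with DESeq2 and the replicate block. Without both libraries numbered 1, the block gave 1201 calls in edgeR and 781 in DESeq2. DESeq2 with the block gave 174 calls without both libraries numbered 2 and 71 without both numbered 3. Of the members, DESeq2 with the block called 1 (Id3). It called 2 (Smad6 and Id3) without both libraries numbered 1, as did edgeR with the block, and 2 without both numbered 2. The replicate block in edgeR and limma-voom left 0 calls, of the members and of all genes. Leaving out libraries without the block also gave 0 calls throughout. The log2FC over those 9 settings ranged from -0.49 to 0.62 for Bmpr1a, from -0.85 to 1.25 for Bmpr1b, from -0.63 to 1.55 for Bmpr2, from -1.16 to 0.061 for Id2 (above 0 when Gli1- replicate 2 was left out) and from -1.26 to 0.11 for Id4. It stayed below 0 for Acvr1 (-1.07 to -0.71), Smad6 (-3.06 to -1.53), Smad7 (-0.90 to -0.0085), Id1 (-1.79 to -0.47) and Id3 (-2.87 to -0.90). Signs turned with the block and without both libraries numbered 1 for Bmpr1a (-0.48 in edgeR, -0.49 in DESeq2), Bmpr1b (-0.61, -0.62) and Bmpr2 (-0.61, -0.61), and for Smad7 in edgeR (0.00015). The cause was not tested. Acvr1, Smad6, Id1 and Id3 were below 0 in all 25 alternatives, of which 8 were added after seeing the data. Low counts limit Smad6 and Id4 most, at 0 to 195 and 22 to 141 reads per library.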
